A study of Mus musculus with 12 samples.

Results

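The aminoacyl-tRNA synthetases are the enzymes that load each amino acid onto its tRNA before translation. All 39 genes of this family that were chosen by name were found among the 24189 genes of the PB files and the 24732 genes of the PC files. They comprise 20 cytosolic synthetases, 16 mitochondrial synthetases, whose symbols end in 2, and the 3 scaffold proteins Aimp1, Aimp2 and Eef1e1, of which Aimp2 is cytosolic despite its final digit. RNA-seq was performed by the authors on 10 libraries, 2 for each of 5 groups of C57BL/6 mice. Plasmablasts (PBs) were obtained from splenic B cells in the iGB culture, in which the cells grow on 40LB feeder cells that present CD40 ligand and BAFF, and were sorted on day 8 by surface markers that include CD138. The culture received IL-4 first and IL-21 afterwards. The PBs carried Xbp1 fl/fl (control PBs), Cd23-Cre Xbp1 fl/fl (Xbp1-deficient PBs), in which Cre is active from the immature B cell stage on, or Bhlha15 CreER/CreER, in which CreER is placed in the gene of the transcription factor Mist1. Plasma cells (PCs) were sorted from the spleen as TACI+CD138+ cells on day 7 after immunization with NP-KLH. They came from control mice, which are named wildtype in the labels and Bhlha15 fl/fl in the study, and from Cd23-Cre Bhlha15 fl/fl mice (Mist1-deficient PCs). The PB control thus carries floxed Xbp1 alleles without Cre and the Bhlha15 CreER/CreER PBs are labelled with no floxed allele. Peaks of biotinylated Mist1 were available from 2 ChIP-seq experiments on PBs stimulated for 4 days with LPS. Both were labelled as homozygous for floxed Bhlha15 and for BirA at R26. In the study this floxed allele carries a tag that accepts biotin, and BirA is the ligase that attaches it. Nothing in the labels says which mice or cultures gave a library, so that p-values measure the spread between these libraries.

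Cytosolic synthetases charge the tRNAs that read nuclear-encoded messages, among them those for antibodies, whereas the mitochondrial enzymes charge the tRNAs of the small mitochondrial genome and are made from separate nuclear genes. Gars and Kars are exceptions, as each gives rise to the enzyme of both compartments, and Eprs joins the enzymes for glutamate and proline in a single protein. Several cytosolic synthetases and the scaffold proteins form the multisynthetase complex. The transcription factor ATF4, which is translated under amino acid shortage and ER stress, is known to activate genes of many cytosolic synthetases through C/EBP-ATF response elements. Xbp1 is the transcription factor of the IRE1 branch of the unfolded protein response, and Mist1 is a basic helix-loop-helix factor of secretory cells that binds E-boxes.

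The deposited values are TPM, a share of transcripts, which are corrected for gene length and sum to the same total in each library, so that levels can be compared between genes but the sequencing depth is unknown. For the comparisons the libraries were scaled to each other, and the log2 of the scaled TPM plus 0.1 was fitted with limma. The limma folds given here are differences on this scale, and a gene is said to have risen or fallen when its adjusted p, over all genes tested, was under 0.05. All 39 genes passed the filter of at least 1 TPM in at least 2 libraries in each comparison. Bhlha15 was listed at 176 and 159 TPM in control PBs, at 3.57 and 2.60 TPM in Xbp1-deficient PBs and at 0.21 and 0.55 TPM in Bhlha15 CreER/CreER PBs. In PCs it was listed at 258 and 242 TPM in the control and at 14.4 and 16.6 TPM in the Mist1-deficient libraries. Xbp1 was listed at 3168 and 3043 TPM in control PBs and at 1981 and 2024 TPM after its deletion, and the files hold no values for single exons. None of the 8 plasma cell markers was at 0 in any of the 10 libraries. Markers of other cells were present too. The 6 fibroblast markers, which stand for the feeder cells, summed to between 939 and 1815 TPM in PBs and to between 10.4 and 13.7 TPM in PCs. In PCs, 8 neutrophil markers summed to between 461 and 988 TPM, 5 macrophage markers to between 133 and 178 TPM and 6 T cell markers to between 69.9 and 100.4 TPM, and none of these 19 genes was at 0.

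To show where the ATF4 element lies in the genes that changed, promoter sequences were taken from the RefSeq annotation of GRCm38.p6, which is not the build of the data. The table held a promoter, from 250 bases before to 50 bases after the start of the gene, for 30 of the 39 genes, with Mars listed as Mars1. Cars, Hars, Lars, Nars, Rars, Vars, Wars, Hars2 and Pars2 had no entry. The core of the element, TGATGNAA on either strand, was found in 5 of the 30 promoters (16.7%) and in 4.51% of the 27025 genes of the table. All 5 belonged to cytosolic enzymes, namely Aars, Gars, Iars, Tars and Yars, and it was found in none of the 14 mitochondrial promoters or the 3 scaffold genes. These 5 sequences are shown 5' to 3' along the strand of the gene, with the element in capitals.
Aars: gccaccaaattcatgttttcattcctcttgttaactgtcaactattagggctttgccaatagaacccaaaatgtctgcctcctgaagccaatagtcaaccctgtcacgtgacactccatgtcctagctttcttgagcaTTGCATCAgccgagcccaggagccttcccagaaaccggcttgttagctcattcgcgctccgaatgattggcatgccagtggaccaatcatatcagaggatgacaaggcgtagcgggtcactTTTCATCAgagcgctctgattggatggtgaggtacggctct
Gars: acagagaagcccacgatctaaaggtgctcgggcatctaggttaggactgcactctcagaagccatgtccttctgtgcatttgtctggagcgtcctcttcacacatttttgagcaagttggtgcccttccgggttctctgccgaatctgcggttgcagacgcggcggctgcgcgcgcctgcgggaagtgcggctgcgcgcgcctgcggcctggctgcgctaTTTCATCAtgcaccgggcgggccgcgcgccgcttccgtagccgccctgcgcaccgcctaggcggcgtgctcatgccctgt
Yars: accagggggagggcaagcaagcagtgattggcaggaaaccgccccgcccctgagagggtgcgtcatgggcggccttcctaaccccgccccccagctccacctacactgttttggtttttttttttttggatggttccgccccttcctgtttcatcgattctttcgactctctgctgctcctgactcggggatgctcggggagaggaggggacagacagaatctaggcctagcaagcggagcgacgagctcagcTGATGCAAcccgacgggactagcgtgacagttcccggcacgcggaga
Iars: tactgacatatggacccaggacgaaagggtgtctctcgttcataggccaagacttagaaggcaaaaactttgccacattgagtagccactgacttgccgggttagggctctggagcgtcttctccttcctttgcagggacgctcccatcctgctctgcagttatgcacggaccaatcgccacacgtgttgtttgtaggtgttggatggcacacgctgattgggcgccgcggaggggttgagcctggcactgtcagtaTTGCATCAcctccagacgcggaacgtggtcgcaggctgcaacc
Tars: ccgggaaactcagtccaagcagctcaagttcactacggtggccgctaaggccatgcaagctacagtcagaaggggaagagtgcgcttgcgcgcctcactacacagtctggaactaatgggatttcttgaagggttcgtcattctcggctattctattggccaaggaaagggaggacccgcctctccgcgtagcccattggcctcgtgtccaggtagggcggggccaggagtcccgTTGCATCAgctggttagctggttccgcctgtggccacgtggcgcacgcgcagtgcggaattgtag
These promoters lie at chr8:111033592-111033891 on the plus strand for Aars, chr6:55037751-55038050 on the plus strand for Gars, chr4:129189653-129189952 on the plus strand for Yars, chr13:49681880-49682179 on the plus strand for Iars and chr15:11399609-11399908 on the minus strand for Tars. Aars held a pair of elements, the first 112 bases before and the second 9 bases after the start. The element lay 30 bases before the start in Gars and 15 bases before it in Tars, and 7 and 3 bases after it in Iars and Yars. In all of these but Yars, the element was on the opposite strand. When only the 250 bases before the start were searched, 3 genes held it. Of the other motifs searched on both strands, CCACG, a core of Xbp1 sites, was found in 18 of the 30 promoters (60%) and in 35.5% of all genes. The E-box CAGCTG was found in 4 promoters (13.3%, 18.3% of all genes), and the E-box CATATG in 2 (6.67%, 4.48% of all genes). CATATG and CAGCTG read the same on both strands, and none of the 4 motifs contains another. A match describes these letters and not binding of a factor.

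The median level of the cytosolic enzymes was well above that of the mitochondrial ones in each group. In control PBs the mean levels of the cytosolic synthetases ranged from 84.7 TPM for Cars, the cysteine enzyme, to 556 TPM for Nars, the asparagine enzyme, with a median of 190 TPM. Those of the mitochondrial synthetases ranged from 3.20 TPM for Wars2 to 54.7 TPM for Iars2, with a median of 15.3 TPM. In control PCs the medians were 156 TPM for the cytosolic and 21.2 TPM for the mitochondrial enzymes, with Nars again at the top of the first class at 499 TPM and Cars2, the mitochondrial cysteine enzyme, at the top of the second at 91.3 TPM. Cars2 mRNA exceeded Cars mRNA in all 4 PC libraries, at 102.7% to 139.8% of its level. The mean TPM as deposited was higher in control PCs than in control PBs for 4 of the 20 cytosolic enzymes and for 13 of the 16 mitochondrial ones. These counts were made without scaling and were not set against the share over all genes, so they describe these genes alone. No test is given, because stage, culture and sort differ between these cells and cannot be told apart. Between replicates, the 39 genes differed by a median of 0.039 to 0.127 on the log2 scale, with Pars2 in control PCs at the upper end of 0.45.

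**Figure D1:**
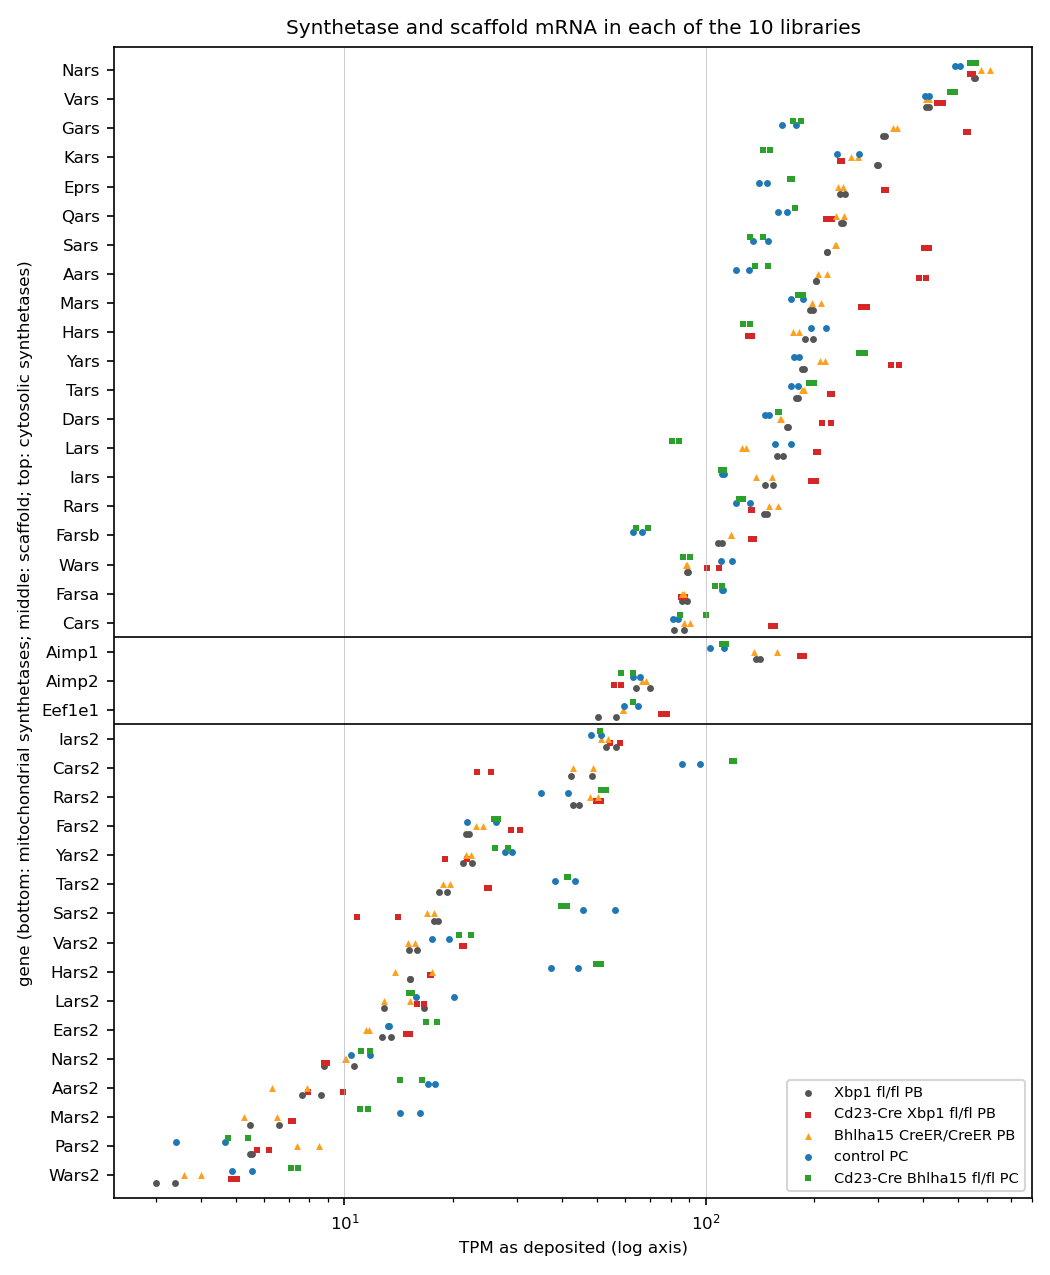
Deposited TPM on a logarithmic axis for each of the 39 genes, ordered by class and by mean in control PBs, with a symbol for each of the 10 libraries (2 for each group). Cytosolic synthetases lie to the right of nearly all mitochondrial ones, Aars, Sars, Gars, Cars and Yars are shifted to the right in Xbp1-deficient PBs, and Cars2 is shifted to the left in these PBs and to the right in PCs.

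The first comparison asked which synthetase genes depend on Xbp1 in PBs. In Xbp1-deficient PBs, 6 of the 39 genes rose and 7 fell relative to control PBs, and the changes ran in different directions within the family. Of the cytosolic enzymes, Aars, Sars, Cars, Yars and Gars rose by 1.47-fold to 1.71-fold, whereas Hars, Kars, Rars and Qars fell by 1.26-fold to 1.68-fold. Of the mitochondrial enzymes, Cars2 and Sars2 fell by 2.15-fold and 1.68-fold, and none rose by limma, with 4 higher at an unadjusted p under 0.05. Over all 12125 genes tested, 10.3% rose and 18% fell. No member differed by more than 3-fold, the threshold of the study. Together with a mean above 5 TPM in the higher group, 1.87% of the genes tested passed it.

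Aars, the alanine enzyme (chr8:113557044-113581564 in mm9), was listed at 202 and 203 TPM in control PBs and at 391 and 409 TPM in Xbp1-deficient PBs. The libraries of the genotypes did not overlap, and the log2 fold change was 0.77 (SE 0.07, limma adjusted p = 0.000129). Sars, the serine enzyme (chr3:108227783-108248127), rose from 217 TPM in both control libraries to 415 and 402 TPM (log2 fold change 0.70, SE 0.08, limma adjusted p = 0.000389). Cars was listed at 82.0 and 87.4 TPM in the control and at 152 and 155 TPM in the mutant, and Yars, the tyrosine enzyme, at 187 and 185 TPM and at 325 and 343 TPM. The mutant libraries of both genes lay above the control libraries, with log2 fold changes of 0.65 (SE 0.08) and 0.64 (SE 0.09). Gars, the glycine enzyme, was the most abundant of the 5, with 315 and 310 TPM in the control and 526 and 533 TPM in the mutant (log2 fold change 0.55, SE 0.09, limma adjusted p = 0.00243). Of these genes Aars, Gars and Yars hold the element shown above, Sars does not, and Cars had no promoter entry, while Iars and Tars hold it and changed by only 0.20 (SE 0.08) and 0.11 (SE 0.08) on the log2 scale without passing the test. Eef1e1, a scaffold protein of the complex, rose from 50.3 and 56.5 TPM to 75.3 and 78.3 TPM (log2 fold change 0.32, SE 0.08).

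The fallen cytosolic enzymes charge the basic amino acids and glutamine. Hars, the histidine enzyme, was listed at 199 and 188 TPM in control PBs and at 132 and 134 TPM in Xbp1-deficient PBs (log2 fold change -0.75, SE 0.09, limma adjusted p = 0.000512). Kars, the lysine enzyme (chr8:114517340-114535223), was listed at 299 and 300 TPM and at 238 and 235 TPM (log2 fold change -0.55, SE 0.09, limma adjusted p = 0.00238). For both genes the mutant libraries lay below the control libraries also in deposited TPM. Rars, the arginine enzyme, and Qars, the glutamine enzyme, fell by 0.33 on the log2 scale (SE 0.09 for each), and these calls were lost in TPM as deposited. The scaffold protein Aimp2 fell from 70.0 and 64.2 TPM to 55.7 and 58.2 TPM (log2 fold change -0.44, SE 0.10). Of the 11 genes of the multisynthetase complex, Eef1e1 rose, 4 fell and 6 did not pass the test, against 10.3% of all genes tested that rose and 18% that fell. In TPM as deposited 7 of the 11 rose and 2 fell, against 28.2% and 11.2% of all genes tested. After quantile normalization 7 rose and 4 fell, against 20.7% and 16.2%.

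The mitochondrial class held the member with the steepest fall. Cars2 (chr8:11514021-11550771) was listed at 42.4 and 48.5 TPM in control PBs, at 23.3 and 25.4 TPM in Xbp1-deficient PBs and at 48.7 and 43.0 TPM in Bhlha15 CreER/CreER PBs. Only the libraries lacking Xbp1 were low, and the log2 fold change to the control was -1.10 (SE 0.08, limma adjusted p = 3.17e-05). Sars2 was listed at 17.7 and 18.2 TPM in the control and at 14.04 and 10.8 TPM in the mutant (log2 fold change -0.74, SE 0.13, limma adjusted p = 0.00378). The other 14 mitochondrial enzymes ranged in their log2 fold change from -0.33 for Nars2 to 0.41 for Wars2 and did not pass the test. For cysteine and serine, the cytosolic enzyme thus rose while the mitochondrial enzyme fell, and these were the only 2 of the 16 pairs with both enzymes called in this comparison. Cars2 mRNA amounted to 51.8% and 55.5% of Cars mRNA in control PBs and to 15.4% and 16.4% in Xbp1-deficient PBs, and Sars2 mRNA to 8.16% and 8.37% of Sars mRNA and to 3.39% and 2.69%. These ratios are formed within a library and do not depend on the scaling between libraries.

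**Figure D2:**
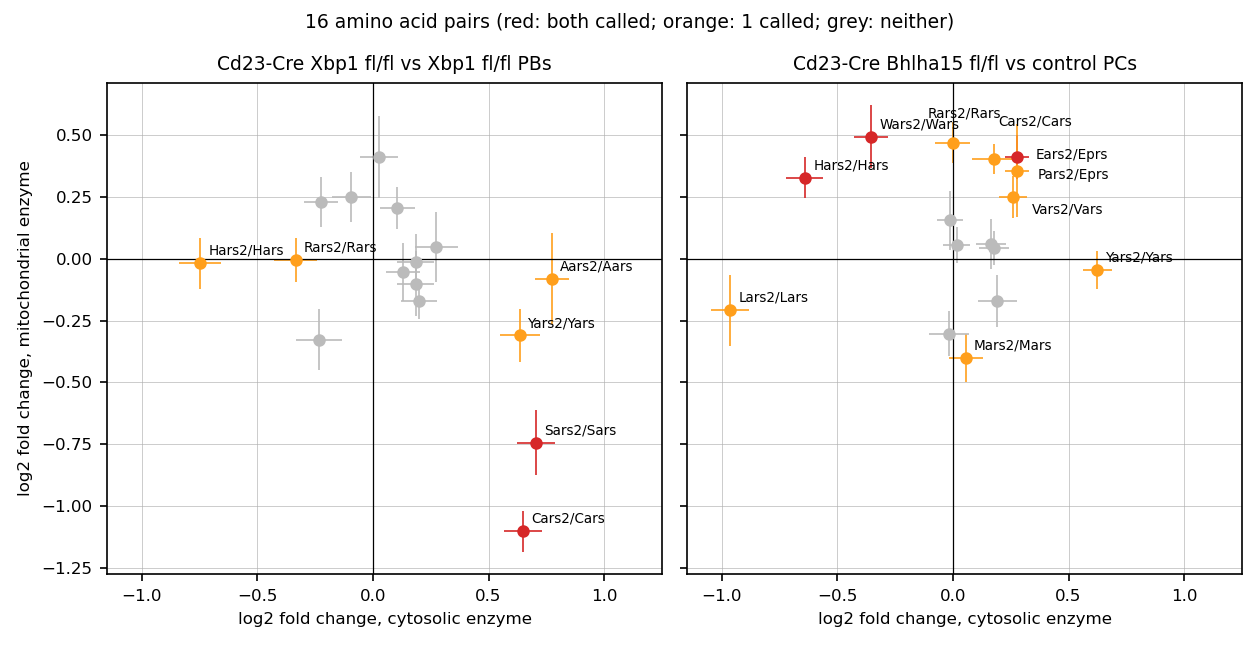
Log2 fold change of each mitochondrial enzyme (vertical axis) against that of the cytosolic enzyme for the same amino acid (horizontal axis), with standard errors as bars, in Xbp1-deficient PBs (left) and Mist1-deficient PCs (right). Eprs stands for 2 pairs, with Ears2 and Pars2. Cars2 and Cars as well as Sars2 and Sars lie at the lower right of the left panel, and Hars2 and Hars as well as Wars2 and Wars lie at the upper left of the right panel.

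The numbers that rose and fell in this comparison depend on the scaling. Over all genes tested, the middle value of the log2 fold changes was 0.0041 after scaling and 0.21 in TPM as deposited. The 10 most abundant genes took 13.3% and 13.0% of the TPM in control PBs and 10.4% and 10.3% in Xbp1-deficient PBs. In TPM as deposited 20 members rose and 5 fell, against 28.2% and 11.2% of all genes tested. After quantile normalization 17 rose and 7 fell, against 20.7% and 16.2% of all genes tested. The classes kept their order under the 3 scalings, with the median of the cytosolic enzymes above that of all genes by 0.11 in scaled TPM, 0.12 in TPM as deposited and 0.22 after quantile normalization, and that of the mitochondrial enzymes below it by a difference of -0.04, -0.04 and -0.06. Aars, Cars, Gars, Sars and Yars rose and Hars, Kars, Cars2 and Sars2 fell under all 12 alternatives of processing or of libraries left out. Markers of cell types moved with the genotype as well. The 8 plasma cell markers summed to 41770 and 41760 TPM in control PBs, 21660 and 21030 TPM in Xbp1-deficient PBs and 38370 and 41820 TPM in Bhlha15 CreER/CreER PBs. The 5 B cell markers summed to 2829 and 2782 TPM, 3902 and 3762 TPM and 2625 and 2669 TPM in the same order. The plasma cell markers did not move together. Mzb1 was at 15570 and 14990 TPM in control PBs and at 3707 and 3547 TPM in Xbp1-deficient PBs. Igj, Tnfrsf17 and Xbp1, the deleted gene, were lower as well. Irf4, at 683 and 652 TPM in the control and 865 and 971 TPM in the mutant, was higher, as were Prdm1 and Tnfrsf13b. Sdc1 overlapped. Of the B cell markers, all but Cd79a were higher. The fibroblast markers summed to 1182 and 1413 TPM in control PBs, 1815 and 1671 TPM in Xbp1-deficient PBs and 1572 and 939 TPM in Bhlha15 CreER/CreER PBs, with none of the 6 at 0. The neutrophil markers summed to 11.6 and 10.3 TPM in the control and to 134 and 133 TPM in the Xbp1-deficient PBs, where 1 of the 8 was at 0. The part of these markers in the results was not tested. In bulk samples fewer cells of a type and less RNA per cell cannot be told apart.

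**Figure D3:**
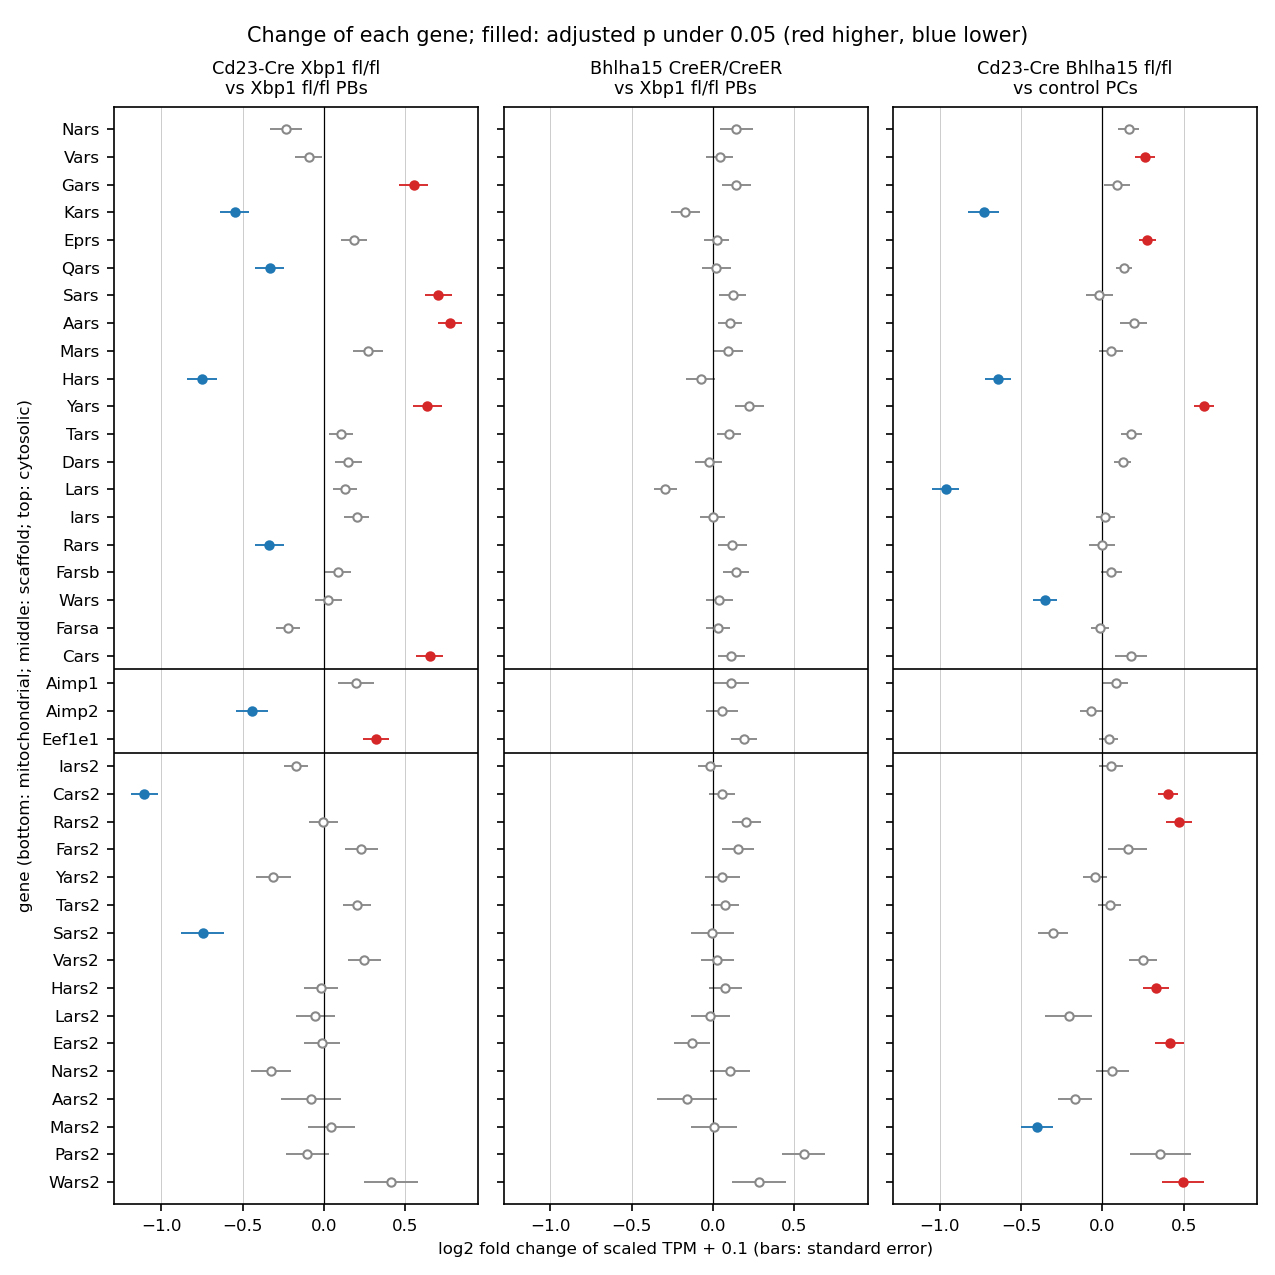
Log2 fold change with its standard error for each of the 39 genes in 3 comparisons, with filled symbols for an adjusted p under 0.05 from limma (red higher, blue lower). In the left panel 6 genes are higher and 7 lower, in the middle panel none is called, and in the right panel 8 are higher and 5 lower.

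Synthetases known to respond to ATF4 were separated from the other cytosolic enzymes in a list made from general knowledge, with earlier results of these data known. The split therefore describes these genes and does not test a part of ATF4. Of the 13 enzymes of this list 5 rose and none fell in Xbp1-deficient PBs by limma, with 1 falling at an unadjusted p under 0.05 and a median log2 fold change of 0.20. Of the 7 other cytosolic enzymes none rose, with 0 rising at an unadjusted p under 0.05 in limma, and 4 fell, with a median of -0.33, against a median of 0.0041 over all genes tested. In scaled TPM 10.3% of all genes tested rose and 18% fell. In TPM as deposited 11 of the 13 rose and none fell, and 2 of the 7 others rose and 2 fell, while 28.2% of all genes tested rose and 11.2% fell. After quantile normalization 10 of the 13 rose and none fell, and 2 of the 7 others rose and 4 fell, while 20.7% of all genes tested rose and 16.2% fell. The genes of the amino acid response, which includes ATF4 targets, amino acid transporters and enzymes of serine and proline synthesis, were read beside them. Of the 27 genes tested, 20 rose and 1 fell, and their median was 0.68 on the log2 scale. Atf5, a transcription factor of the same stress response, was listed at 99.6 and 100.1 TPM in the control and at 546 and 537 TPM in the mutant (log2 fold change 2.23, SE 0.11, limma adjusted p = 3.11e-06). Trib3, a pseudokinase that is induced through ATF4 and CHOP, rose from 11.8 and 12.6 TPM to 58.5 and 53.0 TPM (log2 fold change 1.97, SE 0.10). The gene that fell was Slc1a5, a glutamine transporter, from 391 and 400.1 TPM to 76.4 and 86.5 TPM (log2 fold change -2.49, SE 0.09, limma adjusted p = 1.01e-06). The ATF4 gene itself was listed at 515 and 561 TPM and at 562 and 540.1 TPM and did not pass the test (log2 fold change -0.17). It was chosen for mention after its values were seen.

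Other lists of genes that work beside the synthetases are read against the 10.3% of all genes tested that rose and the 18% that fell. In TPM as deposited these shares were 28.2% and 11.2%, and after quantile normalization they were 20.7% and 16.2%. Of 20 genes of mitochondrial translation 2 rose and 2 fell in Xbp1-deficient PBs (10% each), and the largest change was that of Trmt61b, a methyltransferase of mitochondrial tRNA, which fell by 1.86 on the log2 scale (SE 0.19). Mrrf, the mitochondrial ribosome recycling factor, rose by 0.57 (SE 0.11). Of 16 genes of cytosolic elongation and tRNA delivery 1 rose and 4 fell, while 6 rose and 4 fell both in TPM as deposited and after quantile normalization. The largest changes were those of Pelo, Hbs1l and Abce1, which act together in the rescue of stalled ribosomes and fell by 0.84, 0.74 and 0.71 on the log2 scale. Of 27 genes of tRNA processing 4 rose and 7 fell. In TPM as deposited 5 of these rose and 4 fell, and of the genes of mitochondrial translation 4 rose and 1 fell.

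The second comparison asked for the effect of the Bhlha15 CreER alleles in PBs. None of the 39 genes was called relative to control PBs in limma, and 5 had an unadjusted p under 0.05, as did 1267 of the 12125 genes tested. Over all genes tested 0.0495% rose and 0.272% fell, and 0.0495% passed the rule of a 3-fold difference. Lars, the leucine enzyme, was listed with 158 and 164 TPM in the control and 129 and 126 TPM in Bhlha15 CreER/CreER PBs. Its libraries did not overlap, and its log2 fold change was -0.29 (SE 0.07, limma adjusted p = 0.202), which passed the test in TPM as deposited (-0.34, adjusted p = 0.0363 from limma) and after quantile normalization (-0.34, adjusted p = 0.032 from limma). Pars2, the mitochondrial proline enzyme, was listed at 5.49 and 5.55 TPM and at 8.497 and 7.38 TPM (log2 fold change 0.56, SE 0.13, limma adjusted p = 0.196). The other 37 members lay between -0.17 for Kars and 0.28 for Wars2. In the same PBs, Qtrt1, a subunit of the enzyme that places queuine into tRNA, fell by 1.34 on the log2 scale (SE 0.10, limma adjusted p = 0.00219), and Pycr1, an enzyme of proline synthesis, fell by 0.999 (SE 0.08, limma adjusted p = 0.00303), while no gene of mitochondrial translation or of cytosolic elongation was called, with 3 and 1 at an unadjusted p under 0.05.

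When the mutant PBs were compared with each other, 6 of the 39 genes were higher and 12 were lower in Xbp1-deficient than in Bhlha15 CreER/CreER PBs, against 9.34% and 17.8% of all genes tested. This contrast is the difference between the changes described above, which share their control libraries. The higher genes were Aars, Sars, Cars, Lars, Yars and Gars, with log2 differences of 0.67, 0.59, 0.54, 0.42, 0.41 and 0.41. The lower genes included Hars, Rars, Kars, Nars, Qars and Farsa among the cytosolic enzymes, with differences from -0.67 to -0.25, as well as Aimp2. Among the mitochondrial enzymes Cars2 (-1.16), Sars2 (-0.74), Pars2 (-0.66), Nars2 (-0.43) and Yars2 (-0.37) were lower. Here, too, the split depended on the scaling. In TPM as deposited 19 members were higher and 5 lower, against 32.8% and 10.4% of all genes tested. After quantile normalization 14 were higher and 7 lower, against 19.2% and 15.3% of all genes tested. Bhlha15 mRNA was at or below 3.57 TPM in both mutants, and the amino acid response held 23 higher genes and 1 lower gene of 27 in this contrast.

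The third comparison asked for the effect of Mist1 loss in splenic PCs. In Mist1-deficient PCs, 8 of the 39 genes rose and 5 fell relative to control PCs, against 13.3% and 16.2% of all genes tested. Of the cytosolic enzymes Lars, Kars, Hars and Wars fell and Yars, Eprs and Vars rose. Of the mitochondrial enzymes Wars2, Rars2, Ears2, Cars2 and Hars2 rose and Mars2 fell. None of the 39 genes differed by more than 3-fold, which 0.848% of the genes tested did with a mean above 5 TPM in the higher group.

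Lars was listed at 172 and 155 TPM in control PCs and at 80.8 and 84.5 TPM in Mist1-deficient PCs. The mutant libraries lay well below the control libraries (log2 fold change -0.96, SE 0.08, limma adjusted p = 0.00195). Kars fell from 267 and 231 TPM to 145 and 151 TPM (log2 fold change -0.73, SE 0.10, limma adjusted p = 0.00496). Hars fell from 216 and 196 TPM to 133 and 127 TPM (log2 fold change -0.64, SE 0.08, limma adjusted p = 0.00443). Lars and Kars belong to the multisynthetase complex and Hars does not, and Kars and Hars are the genes that had also fallen in Xbp1-deficient PBs. Wars, the tryptophan enzyme, was listed at 119 and 111 TPM and at 86.7 and 90.3 TPM (log2 fold change -0.35, SE 0.07). In the opposite direction, Yars (chr4:128867004-128896851) rose from 182 and 176 TPM to 277 and 267 TPM (log2 fold change 0.62, SE 0.06, limma adjusted p = 0.00255). Eprs and Vars, the valine enzyme, rose by 0.28 (SE 0.05) and 0.26 (SE 0.06) on the log2 scale. Aars, Sars, Gars and Cars, which had risen without Xbp1, ranged from -0.02 for Sars to 0.19 for Aars in these PCs and did not pass the test.

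Cars2, which had fallen without Xbp1, was listed at 86.1 and 96.4 TPM in control PCs and at 118 and 120 TPM in Mist1-deficient PCs. All 4 PC libraries lay above those of the PBs, and its log2 fold change was 0.40 (SE 0.06, limma adjusted p = 0.00714). Rars2 was listed at 34.9 and 41.6 TPM and at 53.0 and 51.3 TPM (log2 fold change 0.47, SE 0.08), and Wars2 at 4.88 and 5.54 TPM and at 7.43 and 7.11 TPM (log2 fold change 0.49, SE 0.13). Ears2, which charges mitochondrial tRNA with glutamate, rose by 0.41 (SE 0.09) and Hars2 by 0.33 (SE 0.08), while Mars2 fell by 0.40 (SE 0.10). For histidine and tryptophan the enzymes of the compartments moved in opposite directions, the cytosolic enzyme falling and the mitochondrial enzyme rising, while Eprs and Ears2 both rose. Hars2 mRNA amounted to 17.3% and 22.6% of Hars mRNA in control PCs and to 37.3% and 40.3% in the mutant PCs, and Wars2 mRNA to 4.12% and 5.01% of Wars mRNA and to 8.57% and 7.87%. Hars and Hars2 are neighbours on opposite strands, and they overlap in the 197 bases between their starts. The sources used here do not state whether strand was used in counting, so that reads from such an overlap are uncertain, as they are for Mars with Ddit3 and for Aars, Cars, Farsb, Lars, Sars, Vars, Yars, Aimp2, Ears2, Iars2 and Nars2 with genes on the other strand.

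Leaving out either Mist1-deficient PC library reduced the calls among the members and also over all genes tested. In these fits the lone library is assumed to vary like the other group. Hars, Kars and Lars fell and Yars rose under all 11 alternatives, whereas Cars2, Ears2 and Rars2 held under those that kept all 4 libraries. The markers of other cells differed between libraries within each group. The neutrophil markers summed to 988 and 461 TPM in the control and to 845 and 560 TPM in the mutant, and the T cell markers to 69.9 and 70.7 TPM and to 77.7 and 100.4 TPM. Their part in the changes was not tested.

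In PCs the lists are read against the 13.3% of all genes tested that rose and the 16.2% that fell. Of the 13 ATF4-responsive enzymes 3 rose and 2 fell, and their median was 0.16 on the log2 scale. Of the 7 other cytosolic enzymes none rose by limma, with 1 higher at an unadjusted p under 0.05, and 2 fell, with a median of -0.0021. Of the 27 genes of the amino acid response 12 fell and none rose by limma, with 1 higher at an unadjusted p under 0.05 and a median of -0.39 against 0.014 over all genes tested. Pycr1 was listed at 107 and 86.2 TPM in control PCs and at 17.2 and 18.3 TPM in mutant PCs (log2 fold change -2.41, SE 0.13, limma adjusted p = 0.00115). Ddit4, an inhibitor of mTORC1 signalling, and Aldh18a1, which acts before Pycr1 in proline synthesis, fell by 1.36 (SE 0.11) and 1.11 (SE 0.12) on the log2 scale. Of the genes of cytosolic elongation and tRNA delivery 5 of 16 fell and none rose by limma, with 0 higher at an unadjusted p under 0.05. The largest changes were those of Xpot, the nuclear exporter of tRNA, at -0.66 (SE 0.07), Hbs1l at -0.53 (SE 0.07) and Eif5a at -0.50 (SE 0.08). Of 20 genes of mitochondrial translation 1 rose and 4 fell, with Trit1 and Trmu, which modify tRNA, falling by 0.76 and 0.58 and Trnt1, which adds the CCA end to tRNA, rising by 0.55 on the log2 scale. Of 27 genes of tRNA processing 2 rose (7.41%) and 4 fell (14.8%). After quantile normalization 5 rose and 4 fell, against 16.1% and 14.7% of all genes tested. Qtrt1 was listed at 135 and 129 TPM in control PCs and at 27.7 and 29.2 TPM in mutant PCs (log2 fold change -2.19, SE 0.07, limma adjusted p = 0.000748). Qtrt1 was thus lower than its control in all 3 mutants, by 0.69 (SE 0.10) on the log2 scale in Xbp1-deficient PBs, although that comparison and the other in PBs share their control libraries.

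**Figure D4:**
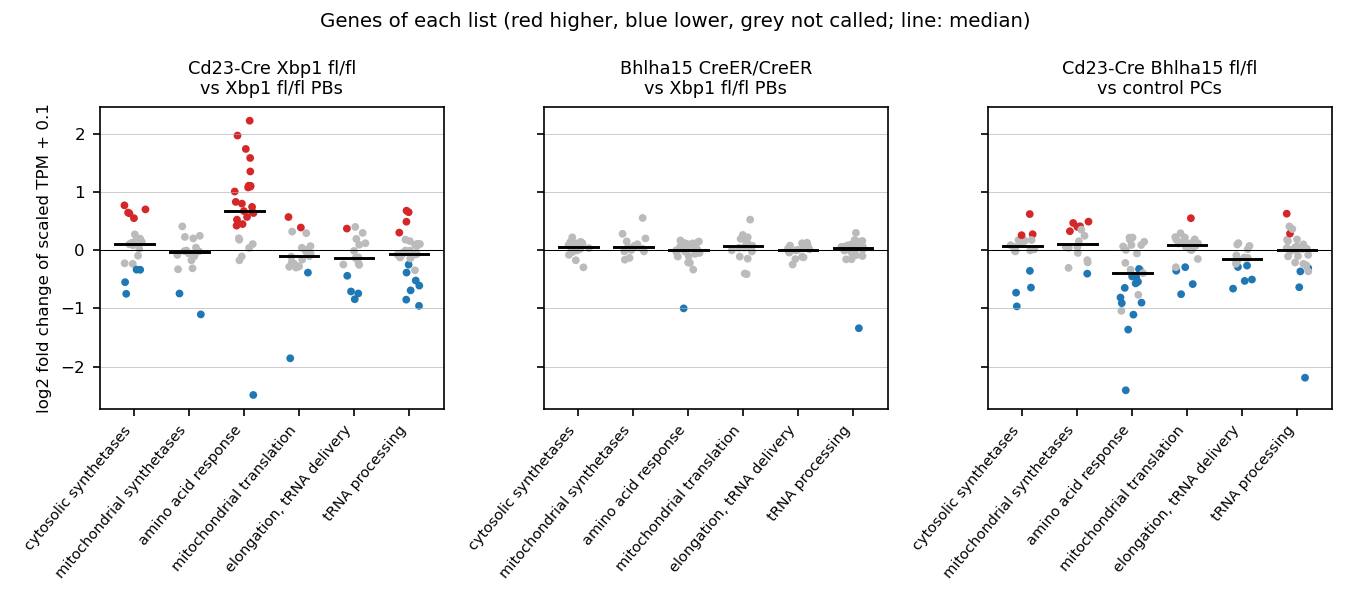
Log2 fold change of each gene (points) and median (line) for the 2 classes of synthetases and 4 lists of partner genes in 3 comparisons, with red for genes that rose, blue for genes that fell and grey for genes that did not pass the test. The amino acid response has a median of 0.68 in the left panel, 0.01 in the middle panel and -0.39 in the right panel, while the medians of both classes of synthetases stay between -0.04 and 0.12.

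To test whether Mist1 loss acted differently in PCs than in PBs, the change in PBs was subtracted from that in PCs in a fit of all 10 libraries. The alleles, controls and cells differ between these contrasts, so that a difference is not that of Mist1 alone. In this fit 2 of the 39 genes had a higher and 3 a lower change in PCs, against 1.94% and 4.17% of all genes tested. Lars (-0.66, SE 0.10), Hars (-0.55, SE 0.11) and Kars (-0.54, SE 0.12) fell more in PCs, and Yars (0.41, SE 0.09) and Ears2 (0.56, SE 0.13) rose more. Of the 5 genes, Lars alone was called under every alternative that kept all libraries, and none was also called in each fit with a library left out.

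The balance of the classes was read as the summed TPM of the mitochondrial enzymes in percent of that of the cytosolic enzymes in the same library. It was 7.21% and 7.71% in control PBs, 6.18% and 6.07% in Xbp1-deficient PBs and 7.75% and 7.33% in Bhlha15 CreER/CreER PBs. In PCs it was 12.3% and 13.9% in the control and 14.4% and 14.04% in the Mist1-deficient libraries. The Xbp1-deficient PB libraries were the lowest and did not overlap with their control, at 6.12% ± 0.08 against 7.46% ± 0.35 (SD, n = 2 each). The Bhlha15 CreER/CreER libraries overlapped with this control. The PC groups lay close together, at 13.1% ± 1.13 in the control and 14.2% ± 0.24 in Mist1-deficient PCs (SD, n = 2 each), a fold of 1.08 (SD 0.095). Their nearest libraries were at 13.9% and 14.04%. The PC groups overlapped without Gars and Kars, at 14.01% and 15.68% against 15.79% and 15.45%. They also overlapped without Nars and Cars2, the highest member of each class, at 11.55% and 12.96% against 13.03% and 12.73%. They stayed apart with the median enzyme of each class and without Lars2. The sum of the cytosolic enzymes was 4245 and 4214 TPM in the control and 5258 and 5336 TPM in Xbp1-deficient PBs, and that of the mitochondrial enzymes was 306 and 325 TPM and 325 and 324 TPM. Taking the median enzyme of each class in place of the sum gave 7.85% and 8.72% in the control and 7.46% and 7.71% in Xbp1-deficient PBs, a smaller difference.

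**Figure D5:**
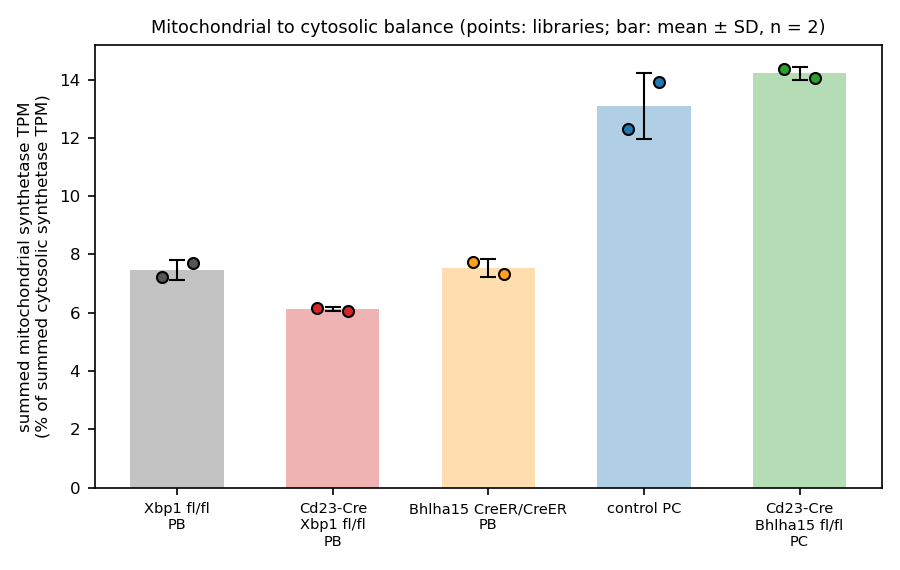
Summed TPM of the 16 mitochondrial synthetases in percent of that of the 20 cytosolic synthetases, with points for libraries and bars for the mean ± SD of 2 libraries. The PB groups lie between 6.07% and 7.75% and the PC groups between 12.3% and 14.4%.

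Mist1 peaks were read against gene starts in mm9 with the GENCODE M1 annotation of the same build. Regions with a peak in both experiments, 23804 in all, lay within 1 kb of a start of 32 of the 39 genes (82.1%), against 63.8% of the 11248 genes tested in PBs that the annotation held. They were found at 19 of 20 cytosolic enzymes, 2 of 3 scaffold genes and 11 of 16 mitochondrial enzymes. The exceptions were Yars, Aimp1, Nars2, Pars2, Rars2, Sars2 and Vars2. Of the 13 genes called in Mist1-deficient PCs 11 had such a region, among them all 5 that fell, and of the 26 others 21 had it. Yars and Rars2, which rose, had none, although Yars had a peak in the second experiment and Rars2 in the first. Hars and Hars2 share a single region that covers both of their starts. As the cells of the ChIP-seq experiments were stimulated with LPS and differ from the PBs and PCs of the RNA-seq data, a peak at a start describes a position and not regulation in those cells.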

How the data were processed

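RNA-seq libraries (2 for each of 5 groups) and Mist1 ChIP-seq peaks from 2 experiments were used. The authors trimmed reads with cutadapt, aligned them with STAR 2.4.2 to mm9, used featureCounts 1.5 for gene counts, and deposited TPM without immunoglobulin and T cell receptor genes. Whether counting used strand is not given in the sources used here. The deposited peaks, called by the authors with MACS, give positions alone. The authors tested counts with DESeq2; TPM need another test.

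Here, libraries were scaled by median ratios, filtered (at least 1 TPM in 2 libraries) and fitted as log2(TPM + 0.1) with limma 3.58.1 (R 4.3.3; lmFit, eBayes with trend), separately for the 6 PB and 4 PC libraries and jointly for the difference of the Mist1 effects. The Benjamini-Hochberg adjustment covered all genes. The fit was tested on simulated data. Peaks were overlapped with bedtools 2.31.1. Members, lists and motifs were chosen with earlier results of these data known. All members are named, and of each partner list genes among the 3 with the largest called changes. Items withheld for evaluation are not reported here. The suffix _IMP_OVL was removed from names. Alternatives were other scalings, pseudocounts of 1 and 0.01, other filters, eBayes without trend, smaller models and each library left out. Leaving libraries out of the class balance was added after the data were seen. TPM carry no depth, so no counting error is given.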

Additional observations from a re-analysis of the deposited data

Results flagged for a closer look

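In 5 of the 39 genes the change with Mist1 deficiency differed between PCs and PBs in the fit of all 10 libraries (adjusted p under 0.05 from limma). On the log2 scale the change in PCs minus that in PBs was -0.66 for Lars, -0.55 for Hars, -0.54 for Kars, 0.41 for Yars and 0.56 for Ears2. For Lars, the change was -0.96 in PCs and -0.29 in PBs, both below 0. For Hars it was -0.64 and -0.08, for Kars -0.73 and -0.17, and for Yars 0.62 and 0.22. For Ears2 it was 0.41 and -0.13. The alleles, the controls and the culture differ between the PB and PC contrasts and cannot be told apart from the cell stage.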

How the results depend on the processing

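Groups of 2 libraries limit every value here, and TPM hold no depth. No paired analysis was possible because replicate numbers shared between groups are not given. The cause of the following shifts was not tested. In Xbp1-deficient against control PBs, 6 members rose, against 20 in TPM as deposited and 17 after quantile normalization, which moved the median of mitochondrial minus cytosolic enzymes from -0.15 to -0.27. Of all genes tested, 10.3%, 28.2% and 20.7% rose under these scalings in the same order. Fewer members fell with a library left out, where a group holds a lone library. The share of all genes tested that fell was smaller there too. Rars2, at -0.00 without a call, was called higher in TPM as deposited (0.20). In Bhlha15 CreER/CreER against control PBs, 1 member fell in TPM as deposited and 1 after quantile normalization, in both cases Lars. Of all genes tested, 0.61% and 0.52% fell under these scalings. Between the PB mutants, 6 members were higher, against 19 in TPM as deposited and 14 after quantile normalization, and 12 were lower, against 5 in TPM as deposited, 7 without the variance trend, 7 after quantile normalization and between 6 and 13 with a library left out. Of all genes tested in this contrast, 9.34% were higher, against 32.8% in TPM as deposited and 19.2% after quantile normalization, and 17.8% were lower, against 10.4% and 15.3%. Without the trend 14.1% of all genes tested were lower. Quantile normalization moved the median of mitochondrial minus cytosolic enzymes from -0.15 to -0.35 in this contrast, and Farsb (0.20) and Wars (0.24) in TPM as deposited and Vars (0.17) after quantile normalization were called higher with the opposite sign. In Mist1-deficient PCs, 8 members rose, against 5 without the trend and between 1 and 11 with a library left out, and 5 fell, against between 3 and 6. For the PC change minus the PB change, 2 members were higher, against 4 in TPM as deposited, 4 after quantile normalization and 0 without the trend, without a filter or with only the libraries compared. Of all genes tested, 1.94% were higher, against 1.96%, 4%, 0.726%, 0.898% and 1.37% in the same order. Without the trend 1 member was lower, against 3, while 1.72% of all genes tested were lower, against 4.17%. These counts also changed with a library left out, where a group holds a lone library. The median of mitochondrial minus cytosolic enzymes lay between -0.022 and 0.11 with a library left out, against 0.00. The class balance of Xbp1-deficient PBs was 0.82 of the control from sums and 0.92 from median enzymes. The element TGATGNAA was in 3 promoters and CAGCTG in 2 when only the bases before the start were searched. For PCs, a model of only the groups compared is the fit reported.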
